A study of Mus musculus with 2040 samples.

Results

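Gfap, Vim, Nes, Cd44, S100a6, S100a10, Serpina3n, C4b and Lcn2, genes widely used as signs of astrocyte reactivity, were followed in single sorted astrocytes of mouse brains that had been given an adeno-associated virus (AAV). They were chosen by name as 9 of the 32245 gene columns of a table with 1 line per cell, and all 9 were found. The cells came from 47 C57Bl/6J mice, and each mouse carried 1 of 30 AAV vectors in which an enhancer or promoter drives the yellow fluorescent protein SYFP2. SYFP2-positive cells were sorted singly and made into SMARTer libraries, 2040 in all, from VISp (primary visual cortex, 41 mice), MB/HB (midbrain and hindbrain, 4 mice) or CBX (cerebellar cortex, 2 mice). Injection route, age and time after injection are not given in the sources used here.

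All these mice received an AAV, so the data hold no uninjected group, and whether any level is a response to virus cannot be tested. The sort kept only cells in which the vector's enhancer or promoter was active, so the vector also set which cells were seen. Cells of each vector were taken from a single tissue, so tissue and vector cannot be told apart: CBX is the vector eHGT_375m (called mice E and F here), and MB/HB is MGT_E160m (mice A and B) and eHGT_381h (mice C and D). The mice of GFAP_promoter in VISp are called G and H. In VISp, the astrocytes came from 12 vectors, 7 of them with 2 mice (GFAP_promoter, eHGT_374m, eHGT_380h, eHGT_385m, eHGT_390h, eHGT_390m and 3xCore2(390m)) and 5 with 1 mouse (eHGT_373m, eHGT_376h, eHGT_386m, eHGT_387m and ProB12). The mouse was the replicate throughout.

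Astrocytes are the glia that take up glutamate and potassium, contact vessels and support synapses. After injury or inflammation they enlarge their intermediate filament skeleton and switch on secreted and surface proteins, a state called reactive. Gfap and Vim are filament genes that normal astrocytes also carry to a degree that differs by region, whereas Lcn2 and Serpina3n are known for their steep rise in inflammation. The cerebellar cortex holds Bergmann glia, radial astrocytes known to keep vimentin in adult life, and these were not separated from other CBX cells.

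The sorted cells were grouped by expression, and 970 were called astrocyte-like from 12 astrocyte markers, 741 of them from 19 VISp mice (12 to 46 per mouse), 81 from CBX (43 and 38) and the others from MB/HB (32 to 41 per mouse). The 12 markers were detected in each of the 3 tissues. Their summed level in CPM (reads scaled to a fixed sum per cell), averaged over the cells of a mouse, was 29804 to 39053 in VISp, 28191 to 35933 in MB/HB and 39134 to 40207 in CBX. Different clusters held most of the class in each tissue: clusters 1 and 3 held the VISp cells other than 1 in cluster 4, 51 in cluster 9 and 30 in cluster 10, cluster 8 held 78 of the 81 CBX cells, and cluster 4 held the MB/HB cells other than 6 in cluster 8 and 1 in cluster 9. The 10 genes that led clusters 4 and 8 by fold included none of the 12 astrocyte markers and no marker of another type. Vim and S100a10 were among the 10 of cluster 8, although none of the 9 genes described here was used to form the clusters. By its own markers, 6 of the 970 cells fell into another class. RNA of another cell type was present in 39 VISp cells (5.26%), 20 MB/HB cells (13.5%) and 13 CBX cells (16.05%). The median depth was 431572 reads per cell in VISp, 410437 in MB/HB and 375425 in CBX, and the median number of genes detected was 4329, 3938 and 5323.

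Per kilobase of exon, S100a6 had the highest level of the 9 genes in VISp at 43.1 CPM per kb, followed by Gfap at 21.7 and S100a10 at 20.8, and Lcn2 had the lowest at 0.0060. In CBX the order was S100a10 (392.1 CPM per kb), Vim (194.6), S100a6 (127.7) and Gfap (13.3). In MB/HB, S100a10 led at 73.9 CPM per kb, with S100a6 at 17.7. These are means over mice, given to order the genes, and Gfap and S100a10 in VISp lie within each other's spread over mice.

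The bases before the start site of 2 genes that were high together in CBX, Vim and S100a6, and of Gfap, which was not, are printed for comparison. They are the RefSeq windows of GRCm38.p6, 250 bases each, and capitals mark matches to the motifs searched. S100a10 and C4b were not matched.
Vim, chr2:13574061-13574310, plus strand: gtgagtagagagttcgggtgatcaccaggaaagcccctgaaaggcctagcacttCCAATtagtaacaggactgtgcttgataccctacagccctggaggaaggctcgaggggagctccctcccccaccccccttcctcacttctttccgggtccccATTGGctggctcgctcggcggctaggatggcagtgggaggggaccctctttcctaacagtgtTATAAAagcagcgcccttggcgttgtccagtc
S100a6, chr3:90612644-90612893, plus strand: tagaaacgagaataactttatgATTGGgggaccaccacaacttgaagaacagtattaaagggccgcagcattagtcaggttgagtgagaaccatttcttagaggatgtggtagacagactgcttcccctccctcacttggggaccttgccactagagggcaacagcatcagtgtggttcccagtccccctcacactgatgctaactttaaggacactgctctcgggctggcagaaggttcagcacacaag
Gfap, chr11:102897201-102897450, minus strand: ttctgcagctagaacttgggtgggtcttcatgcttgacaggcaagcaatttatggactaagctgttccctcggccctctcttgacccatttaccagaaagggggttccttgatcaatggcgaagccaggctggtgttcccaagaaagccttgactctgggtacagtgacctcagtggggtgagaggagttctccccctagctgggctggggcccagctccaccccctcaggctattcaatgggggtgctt
Both strands were searched for 6 motifs in the 7 members that matched. The Vim window held a TATA box (TATAAA) from base -32 to -27, counted from the start site, and 2 matches to the CCAAT box (CCAAT). The S100a6 window held 1 CCAAT box. Of the 32851 RefSeq windows of this length, 12.4% held the TATA box and 33.9% the CCAAT box. Nes had 2 matches to the GC box (GGGCGG) and Lcn2 had 1, against 32.7% of all windows. No member window held the STAT motif (TTCNNNGAA), which 7.02% of all windows hold. The AP-1 motif (TGANTCA, in 6.75% of windows) and the NFI palindrome (in 0.0365%) were not found either, and the Gfap, Serpina3n and Cd44 windows held none of the 6. A match describes letters only.

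Gfap (chr11:102887336-102900912, minus strand, mm10) encodes the main filament protein of astrocytes. In VISp its mean per mouse ran from 19.8 CPM to 488.8 CPM with a median of 73.5 CPM (19 mice). The MB/HB mice had 3.58 CPM and 52.1 CPM (A, B) and 35.9 CPM and 55.7 CPM (C, D). The CBX mice had 52.5 CPM and 59.5 CPM. The CBX values lay inside the VISp range, and 1 MB/HB mouse lay below every other mouse. Gfap was patchy within tissues: a read was found in 39.3% of the 741 VISp cells (95% interval 35.7 to 42.9), in 28 MB/HB cells (18.9%) and in 49 of 81 CBX cells (60.5%). The oligodendrocyte-like cells of VISp, which should lack the gene, had a read in 5.39% of cells at a median of 442501 reads, against 431572 reads in the astrocyte-like cells.

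Vim (chr2:13573927-13582826, plus strand) encodes vimentin, the filament partner of Gfap. The CBX mice had 1016.9 CPM and 829.2 CPM. The VISp mice ran from 9.55 CPM to 71.8 CPM with a median of 32.6 CPM, and the MB/HB mice had 10.1, 3.48, 143.1 and 50.9 CPM (A, B, C and D). Every CBX mouse was above every other mouse. In CBX, 79 of 81 cells (97.5%) reached 100 CPM, against 14.2% in VISp and 9 cells (6.08%) in MB/HB. Of the 2 higher MB/HB mice, C drew its level from 6 cells that grouped with the CBX cells, at 267.9 to 1744.9 CPM, and its other cells averaged 7.02 CPM. The level in mouse D came from 1 cell at 1627.8 CPM that was mural- or fibroblast-like by its own markers, and its 30 cells that were astrocyte-like by theirs had 0 CPM.

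Nes (chr3:87971078-87980451, plus strand) encodes nestin, a filament protein of neural progenitors. It was near 0 in nearly all mice: 9 of 19 VISp mice were at 0 and the highest reached 1.31 CPM, and the CBX mice had 0.037 CPM and 0 CPM. MB/HB mouse B had 8.98 CPM, and the other 3 had at most 0.057 CPM. A read was found in 14 of 741 VISp cells (1.89%), against 0.622% of VISp oligodendrocyte-like cells.

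Cd44 (chr2:102811141-102901665, minus strand) encodes a surface receptor for hyaluronan. It was detected in 61.4% of VISp astrocyte-like cells, but with a median of 2 reads in the cells that had it. Oligodendrocyte-like cells had a read at 67.4%, so the share is not read as expression. At 100 CPM or more, Cd44 was found in 25 of 741 VISp cells (3.37%), against 0.207% of oligodendrocyte-like cells. The VISp mice ran from 1.84 CPM to 46.3 CPM with a median of 7.28 CPM, the MB/HB mice had 1.35, 14.3, 19.8 and 0.886 CPM (same order of mice), and the CBX mice 9.80 CPM and 9.03 CPM, so the tissues overlapped.

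S100a6 (chr3:90612882-90624181, plus strand) and S100a10 (chr3:93555080-93564643, plus strand) encode small S100 proteins, the first calcium-binding and the second the partner of annexin A2. S100a10 had 503.9 CPM and 446.6 CPM in the CBX mice, 93.1, 50.6, 94.9 and 119.8 CPM in the MB/HB mice, and 4.16 to 51.2 CPM with a median of 21.7 CPM in VISp. The CBX mice lay above all others, and 3 of the 4 MB/HB mice lay above all VISp mice, the other at 50.6 CPM being just under the highest VISp mouse. S100a6 had 181.9 CPM and 167.2 CPM in CBX, 33.1 to 88.1 CPM with a median of 59.04 CPM in VISp, and 13.9, 21.9, 26.1 and 34.7 CPM in MB/HB. Only 1 MB/HB mouse reached into the VISp range. In mouse C, the 6 cells that grouped with the CBX cells had 28.6 to 253.5 CPM of S100a6, and its other cells averaged 6.83 CPM. The part of these cells in the tissue differences was not tested. In CBX, 91.4% of cells reached 100 CPM for S100a10 and 64.2% for S100a6, and in VISp 9.58% and 23.3%.

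Serpina3n (chr12:104406729-104414329, plus strand), a serine protease inhibitor that is secreted in inflammation, was absent from 5 of the 19 VISp mice, reached 35.4 CPM in the highest, and had a median of 4.54 CPM. The MB/HB mice had 12.5, 26.04, 23.5 and 25.8 CPM, and both CBX mice were at 0. The gene was sparse. A read was found in 27 of 741 VISp cells (3.64%), 8 MB/HB cells (5.41%) and 0 of 81 CBX cells, which allows a share of up to 3.70%. The VISp neuron-like cells (median 425717 reads) had a read in 32.9% of cells, with 95% intervals of 22.7 to 44.4 there and 2.41 to 5.26 in the VISp astrocyte-like cells. The oligodendrocyte-like cells of VISp had a read in 4.35% of cells at a median of 442501 reads. The share of cells with a read thus does not set the astrocyte-like cells apart from them. Among VISp cells with a read, the median level was 211.1 CPM in astrocyte-like cells and 118.9 CPM in oligodendrocyte-like cells. Serpina3n reached 100 CPM in 2.97% of the VISp astrocyte-like cells and 2.49% of the oligodendrocyte-like cells, so the few positive cells were often high in both classes. Much of a mouse's Serpina3n came from 1 cell: over the 14 VISp mice with a read, the highest cell held a median of 100% of the mouse's sum (lowest 32.9%), and over the 4 MB/HB mice a median of 83.8% (60.2% to 100%).

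C4b (chr17:34728380-34743882, minus strand), complement component 4, ran from 0.663 CPM to 43.7 CPM with a median of 3.599 CPM in VISp. The MB/HB mice had 10.4, 2.83, 0 and 0 CPM and the CBX mice 0.80 CPM and 0 CPM. The level in mouse A came from 1 cell at 425.35 CPM. Most of that in mouse B came from 1 cell at 95.9 CPM that was oligodendrocyte-like by its own markers. The 35 cells of mouse B that were astrocyte-like by theirs averaged 0.174 CPM. Over the 19 VISp mice, the highest cell held a median of 100% of the mouse's C4b sum (lowest 37.1%). A read was found in 48 VISp cells (6.48%), against 8.08% of oligodendrocyte-like cells, so this share does not set the astrocyte-like cells apart. In the VISp cells with a read, the median was 32.5 C4b reads in astrocyte-like cells and 31.5 in oligodendrocyte-like cells. The near-identical C4a took 2.81% of the summed C4b and C4a level, and reads that fit both genes cannot be assigned with certainty. Lcn2 (chr2:32384633-32388252, minus strand), the iron-binding lipocalin 2, was found in 1 of the 2040 cells, a VISp cell with 4 reads (10.1 CPM) that also carried RNA of another cell type. With 0 of 81 CBX cells, a share of up to 3.70% is allowed, and with 0 cells in MB/HB, up to 2.03%.

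**Figure D1:**
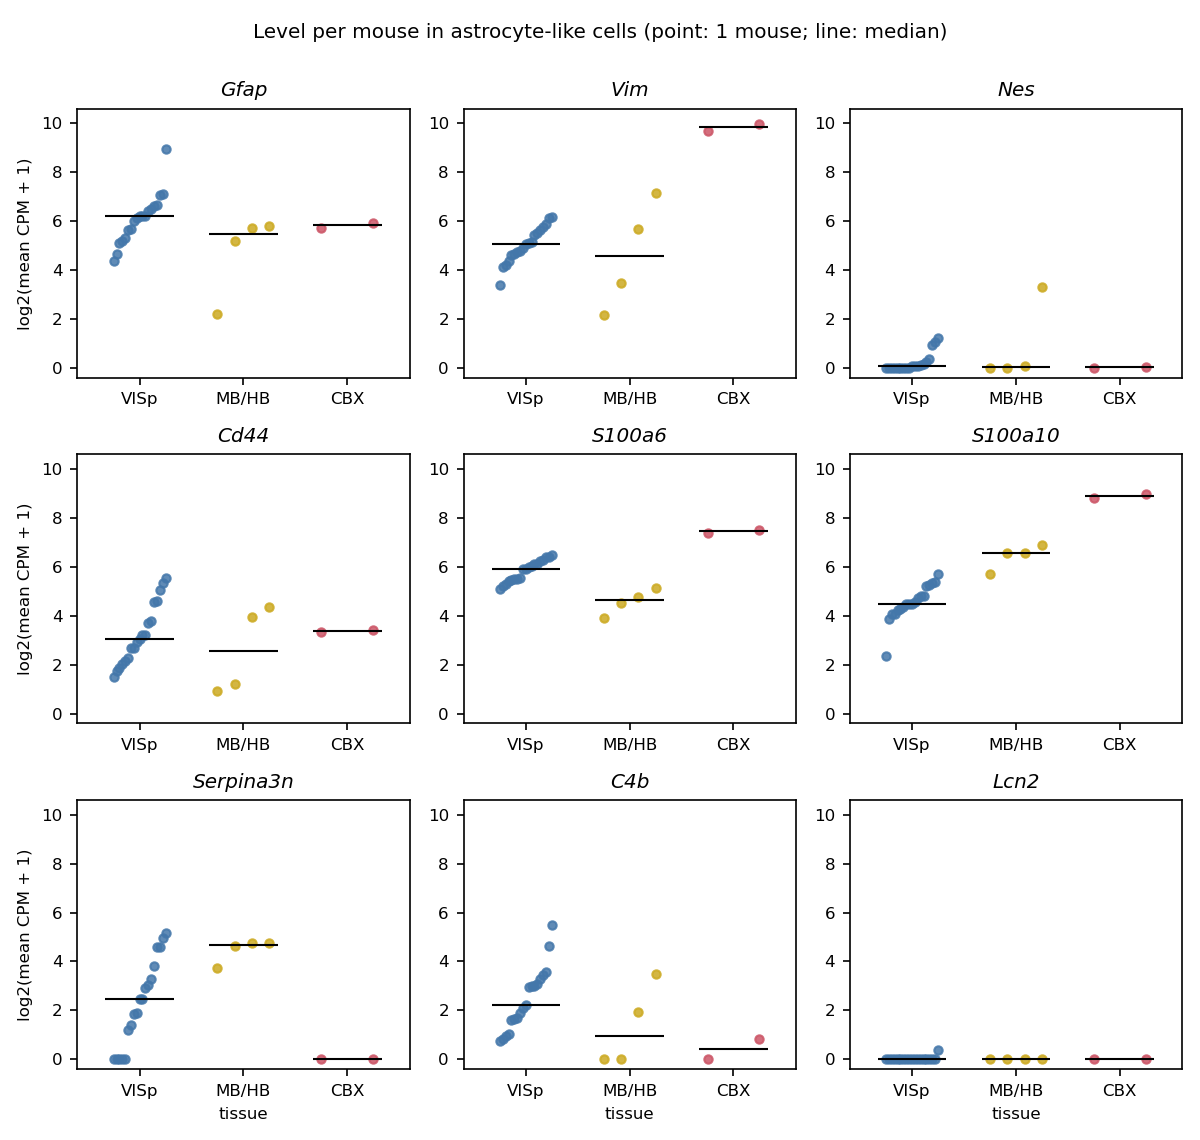
Level of each gene in the astrocyte-like cells of each mouse, as log2(mean CPM + 1), by tissue, with the median as a line. Vim and S100a10 are high in both CBX mice, Serpina3n is at 0 in both CBX mice, and Lcn2 and Nes lie near 0 in nearly all mice.

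**Figure D2:**
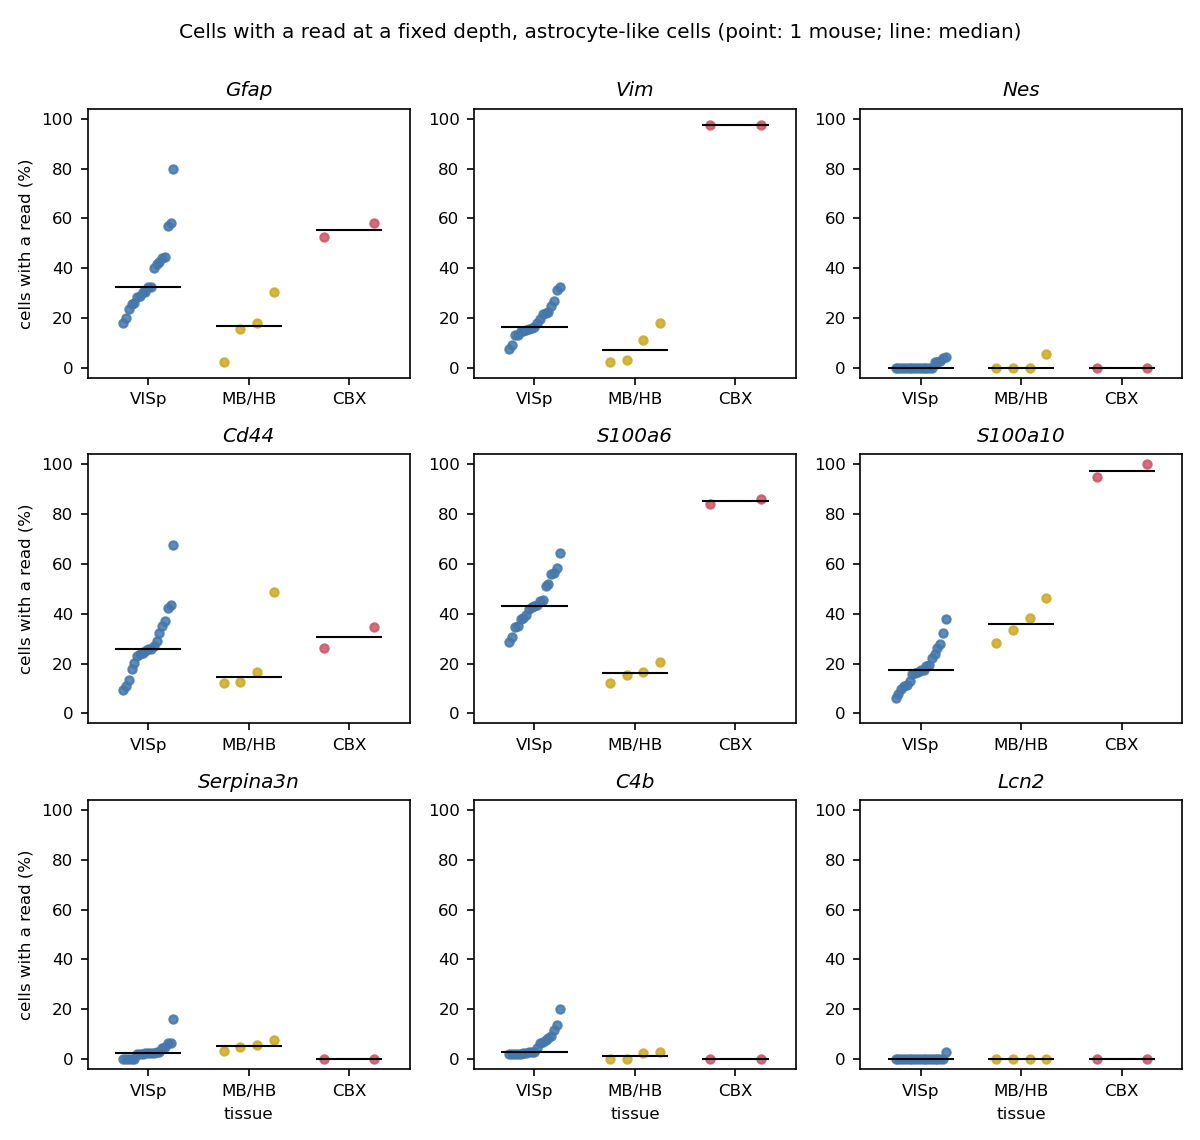
Share of astrocyte-like cells with at least 1 read of each gene after each cell was thinned to 100000 reads, per mouse, with the median of the mice as a line. Vim and S100a10 are found in nearly all CBX cells and in at most 46.3% of the cells of any VISp or MB/HB mouse.

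Tissue differences were tested with limma, a linear model fitted over all panel genes with log2(mean CPM + 1) per mouse, and a difference was called at a Benjamini-Hochberg adjusted p of at most 0.05. Lcn2 did not pass the filter on low levels and was not tested. In CBX against VISp (2 against 19 mice) 3 of the 8 members tested were called, all higher in CBX, beside 22.2% of all genes called, 10.3% called higher, 11.8% called lower and 21.5% with no overlap between mice. Vim was higher by 4.81 ± 0.72 (SE) on the log2 scale (limma adjusted p = 7.4e-06), S100a10 by 4.33 ± 0.50 (limma adjusted p = 8.5e-08) and S100a6 by 1.61 ± 0.35 (limma adjusted p = 0.00090). No values overlapped between the tissues for these 3 genes. Of all calls, 46.6% were higher in CBX, and 85.4% when log2 values were averaged over cells, a scale on which all genes shifted by a median of 0.78 and Gfap turned to +0.94. The other members were not called, with Gfap at -0.28 ± 0.75 (limma adjusted p = 0.84), Serpina3n at -2.30 ± 1.11 (limma adjusted p = 0.14) and C4b at -2.06 ± 0.92 (limma adjusted p = 0.11). The summed oligodendrocyte markers were at 1935 to 2224 CPM in CBX against 171.1 to 1504 CPM in VISp. Cnp, a myelin enzyme, made up most of the CBX sum, at 1782 and 2018 CPM against 164.1 to 429.9 CPM in VISp, and was the only one of the 11 oligodendrocyte markers tested that was called. Mbp and Mobp had medians of 94.7 CPM and 7.52 CPM in CBX against 134.99 CPM and 26.6 CPM in VISp, and Cldn11 was at 0. The part of Cnp in these results was not tested.

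Tissues shared plates, so each difference was also fitted with the plate as a block, with 1 value per mouse and plate (5 or more cells) and the mouse as a random effect, an alternative added after seeing the data. CBX and VISp shared 4 plates (2 and 9 mice). Vim was then higher in CBX by 4.71 ± 0.89 (limma adjusted p = 0.00023), S100a10 by 4.33 ± 0.49 (limma adjusted p = 5.6e-08) and S100a6 by 1.62 ± 0.38 (limma adjusted p = 0.0022), so the 3 calls held. On each of the 4 plates the CBX mouse was above every VISp mouse for these 3 genes.

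In MB/HB against VISp (4 against 19 mice) 2 of the 8 members tested were called, beside 19.5% of all genes called (7.66% higher, 11.9% lower) and 4.87% without overlap. S100a10 was higher by 1.88 ± 0.37 (limma adjusted p = 0.00039) and S100a6 was lower, at -1.26 ± 0.26 (limma adjusted p = 0.00055). The S100a6 values overlapped at the edge. Gfap was at -1.37 ± 0.55 (limma adjusted p = 0.081) and Serpina3n at +2.16 ± 0.82 (limma adjusted p = 0.063), so both missed the threshold. Vim was at -0.41 ± 0.53 (limma adjusted p = 0.66), turned to +0.41 without mouse B, and was called at -1.82 when each cell was classed by its own markers. MB/HB and VISp shared 4 plates (4 and 12 mice), where mice A and B had only 6 and 5 cells. With the plate as a block S100a10 was still higher, by 1.92 ± 0.41 (limma adjusted p = 0.000995), while the call on S100a6 was lost at -0.76 ± 0.31 (limma adjusted p = 0.080). Gfap was called lower in that fit, at -1.87 ± 0.66 (limma adjusted p = 0.038), as was C4b at -2.12 ± 0.72 (limma adjusted p = 0.032), and Serpina3n turned to -0.17 ± 0.98 (limma adjusted p = 0.92). Oligodendrocyte markers were at 838.6 to 6262 summed CPM in MB/HB. The mural or fibroblast markers were at 54.6, 69.1 and 125.4 CPM in mice C, A and B against 30.3 to 110.2 CPM in VISp, and at 1216 CPM in mouse D, where 1 cell had 35964 CPM. The part of these markers in the results was not tested.

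Between CBX and MB/HB (2 against 4 mice) 3 of the 8 members tested were called higher in CBX, beside 10.1% of all genes, and 1 lower, beside 8.89%, and 40.5% of genes did not overlap. Vim was higher in CBX by 5.22 ± 0.84 (limma adjusted p = 3.0e-05), S100a6 by 2.87 ± 0.40 (limma adjusted p = 3.6e-06) and S100a10 by 2.46 ± 0.58 (limma adjusted p = 0.0033). Serpina3n was lower, at -4.47 ± 1.30 (limma adjusted p = 0.015), which is no fold since both CBX mice were at 0. Without CBX mouse E the call on S100a10 was lost at a difference of 2.37, and without either CBX mouse the call on Serpina3n was lost, with the difference still at -4.47. With the plate as a block (3 shared plates) Vim, S100a6 and S100a10 stayed called, while Serpina3n was at -1.78 ± 1.37 (limma adjusted p = 0.36). All 3 comparisons share samples and are given side by side.

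**Figure D3:**
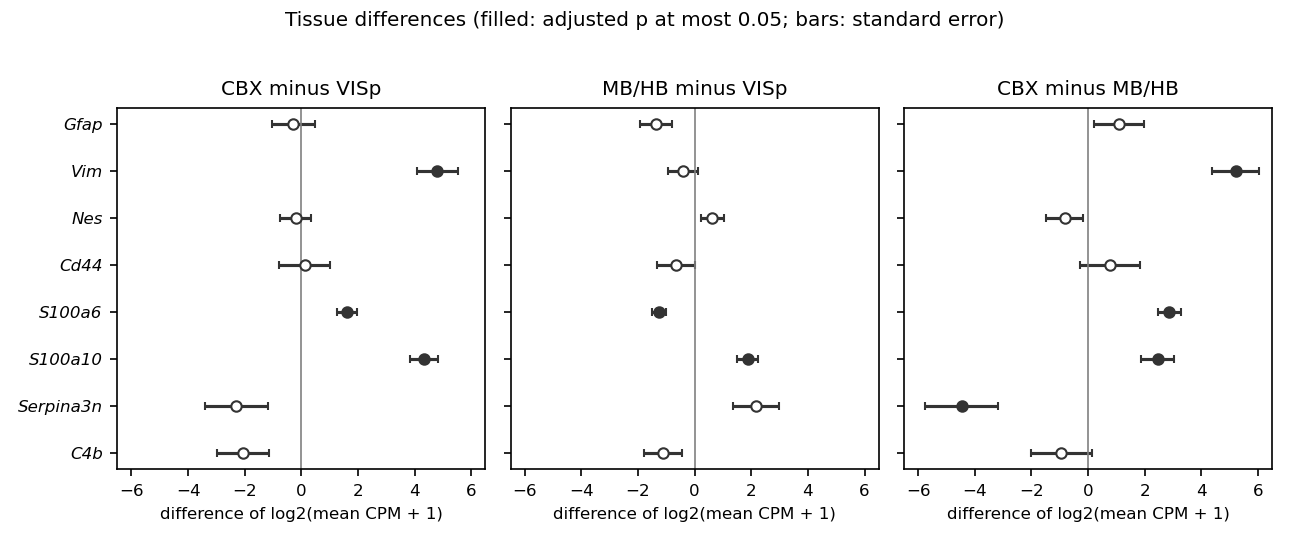
Differences between tissues for the 8 members tested, on the log2(mean CPM + 1) scale, with bars for the standard error and filled points for an adjusted p of at most 0.05. Vim and S100a10 differ most between CBX and VISp, and Gfap lies near 0 there.

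The share of cells with a read after thinning to 100000 reads was tested on its arcsine square root scale. In CBX against VISp, 47.6% of genes were called (42.6% higher, 5.04% lower). Of the members tested, Vim, S100a10 and S100a6 were higher, a share of the members near that of all genes called higher. C4b was lower (limma adjusted p = 0.011), and Nes and Lcn2 did not pass the filter on shares. After thinning, CBX cells had a read in more panel genes, at a median of 2937 against 2304 in VISp. The medians of the mice were 97.5% of cells in CBX for Vim and 97.4% for S100a10. In MB/HB against VISp 17.2% of genes were called (2.62% higher, 14.6% lower). Gfap (limma adjusted p = 0.024), Vim (limma adjusted p = 0.029) and S100a6 (limma adjusted p = 5.7e-05) were detected in fewer MB/HB cells, and S100a10 (limma adjusted p = 0.011) in more. Leaving out mouse A or D lost the calls on Gfap and Vim, and leaving out A that on S100a10, and leaving out either CBX mouse that on C4b. With the plate as a block the call on Vim in MB/HB was lost (limma adjusted p = 0.16), and C4b was called as detected in fewer MB/HB cells (limma adjusted p = 0.014).

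Vectors were compared within VISp. Between the 7 vectors with 2 mice (14 mice), none of the 7 members tested was called, and neither was any other gene: 0.00% of genes were called by the limma F-test, and 4.09% had an unadjusted p of at most 0.05. Serpina3n had an unadjusted limma p of 0.0167 and an eta squared, the share of the variance between vectors, of 0.688. The 2 mice of eHGT_390m had 35.4 CPM and 22.8 CPM of Serpina3n and the 2 mice of eHGT_374m had 0 CPM. The 22.8 CPM came from 1 cell at 751.65 CPM. S100a10 had a larger eta squared of 0.856, at an unadjusted limma p of 0.0769. With only 2 mice per vector, a large eta squared also arises without any difference between vectors, so these values are not read as vector effects. For Gfap the 2 mice of eHGT_390m were at 136.8 CPM and 19.8 CPM, the second highest and the lowest of the 19 mice.

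In GFAP_promoter the reporter is driven, by its name, by a promoter of a member gene. Its mice, G and H, had Gfap at 488.8 CPM and 132.6 CPM, the highest and the third highest of the 19 mice. Gfap was found in 82.2% of the cells of G and 58.1% of those of H, against 57.8% in 1 mouse of eHGT_390m and at most 47.06% in any other VISp mouse. The fit of these 2 mice against the other 17 gave Gfap at +2.11 ± 0.54 (limma unadjusted p = 0.00063, adjusted p = 0.9998), C4b at +2.22 ± 0.78 (limma unadjusted p = 0.0092) and S100a10 at +1.11 ± 0.50 (limma unadjusted p = 0.037). The Gfap difference was +1.17 without mouse G and +3.05 without mouse H, and that of C4b +1.20 and +3.24. No gene was called (0.00%), and 2.37% of genes had an unadjusted p of at most 0.05. For S100a10, the mice of GFAP_promoter (51.2 CPM and 41.01 CPM) did not overlap with the others, which was so for 0.556% of genes. The next mouse, of 3xCore2(390m), was close, at 39.65 CPM. With the plate as a block, S100a10 was at +0.88 ± 0.69 (limma unadjusted p = 0.22) and C4b at +3.02 ± 1.10 (limma unadjusted p = 0.012). Gfap was at +2.48 ± 0.46 in that fit (limma unadjusted p = 2.6e-05, adjusted p = 0.13). The sort was gated on the reporter of GFAP_promoter in these 2 mice, so the choice of cells and a change within cells cannot be told apart.

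**Figure D4:**
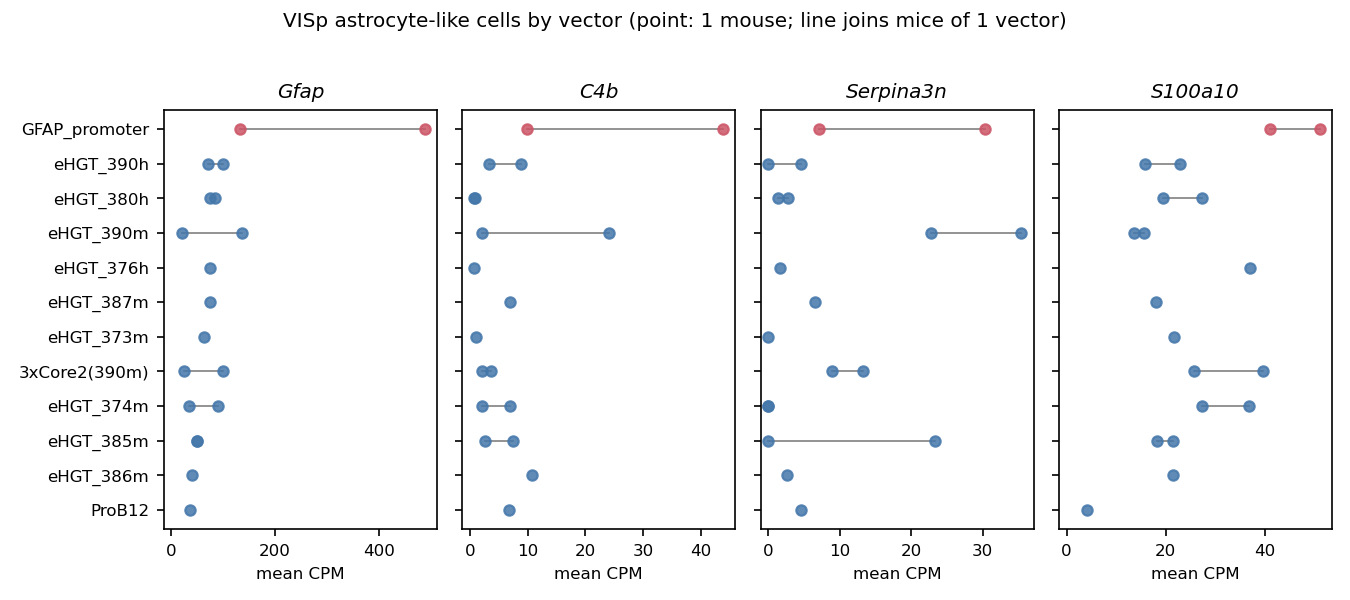
Mean CPM per mouse in VISp astrocyte-like cells by vector for 4 members, with a line between mice of 1 vector and GFAP_promoter in red. The mouse of GFAP_promoter at 488.8 CPM of Gfap stands apart, and the eHGT_390m mice differ for Gfap and C4b.

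Against the oligodendrocyte-like cells of VISp (19 against 22 mice), where 78.7% of genes were called and 38.6% were higher in astrocytes, 5 of the 8 members tested were higher in astrocytes. Gfap was higher by 4.19 ± 0.35 (limma adjusted p = 3.5e-15), S100a10 by 3.10 ± 0.29 (limma adjusted p = 1.5e-13), Vim by 2.67 ± 0.42 (limma adjusted p = 1.8e-07), Cd44 by 1.20 ± 0.30 (limma adjusted p = 0.00033) and S100a6 by 0.63 ± 0.24 (limma adjusted p = 0.014). The call on S100a6 was lost on AB plates alone (+0.45) and that on Cd44 when log2 values were averaged over cells. Serpina3n (+0.23 ± 0.48) and C4b (-0.40 ± 0.43) were not called. Neuron-like cells were not part of this fit. Over the VISp neuron-like cells, S100a10 had a mean of 57.6 CPM, against 25.3 CPM over the astrocyte-like cells. Gfap, Vim, Cd44 and S100a6 had lower means in the neuron-like cells. Between the 2 series of plates, no member was called in VISp (3 SM against 16 AB mice), where 0.00% of genes were called and 4.68% had an unadjusted p of at most 0.05.

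High levels of several members in 1 cell were uncommon in VISp. At 100 CPM or more, 43.9% of VISp cells had none of the 9, 20.6% had 2 or more and 4.45% had 3 or more. In MB/HB 50.7% had none and 13.5% had 2 or more. In CBX 1.23% had none, 97.5% had 2 or more and 66.7% had 3 or more. Of the VISp cells with Gfap at that level (26.05% of all), 35 (18.1%) also had Vim, which is 33.3% of the Vim cells, and 12 also had C4b, which is 57.1% of the 21 C4b cells. These counts pool the cells of all VISp mice. Mouse G of GFAP_promoter had the highest mean of both Gfap (488.8 CPM) and C4b (43.7 CPM), and its part in this overlap was not tested. Serpina3n and C4b were high together in 1 VISp cell.

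**Figure D5:**
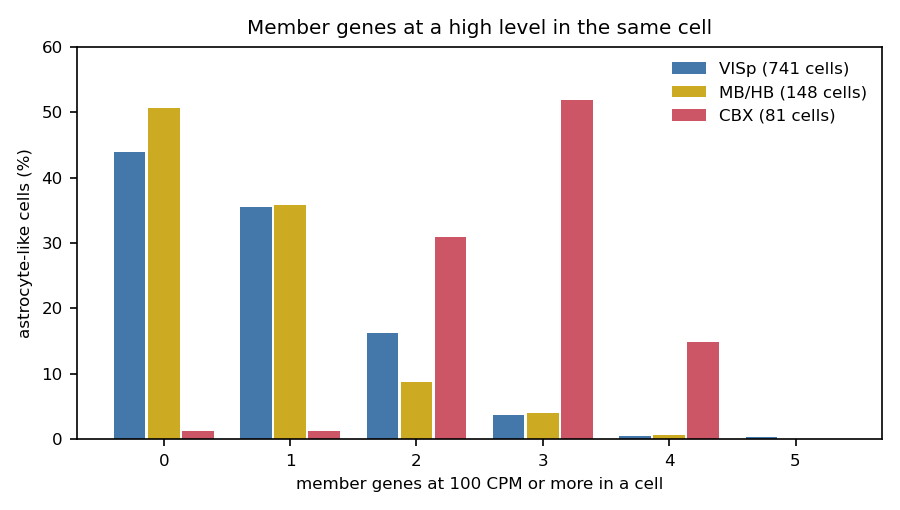
Share of astrocyte-like cells with a given number of the 9 members at 100 CPM or more, by tissue. CBX cells peak at 3 genes and VISp and MB/HB cells at 0 or 1.

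Within single VISp mice, the rank correlation between genes over cells was weak. The median over 18 mice with 20 or more cells was 0.16 for Gfap with S100a6 (above 0 in 14 mice), 0.15 for Gfap with C4b (13 mice), 0.11 for Vim with S100a10 (14 mice) and 0.099 for Gfap with Vim (12 mice). These were the highest medians among pairs with a value in more than 1 mouse. The lowest were -0.088 for Vim with Nes (above 0 in 2 of 10 mice) and -0.084 for Serpina3n with S100a6 (3 of 14 mice). The cells differed in depth, and those of some mice lay on more than 1 plate. Some members were also weakly correlated with the number of genes detected per cell, at 0.20 for S100a10, 0.19 for C4b and 0.15 for Vim. Cd44 was not, at -0.0038 (above 0 in 8 of 18 mice). These are descriptions of sparse values. The genes most like Gfap were Apoe (0.21), Dbi, Aqp4, Snrpf and Rcan2, the 4 most like S100a6 were Apoe (0.24), Cst3, Cpe and Clu, and those most like Cd44 were Lars2 (0.26), Zc3h7a, Sbds, Med26 and D130009I18Rik. The measure was the median rank correlation over the mice, of 4578 genes, and the 99th percentile of all genes was 0.13 for Gfap, 0.15 for S100a6 and 0.13 for Cd44.

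Other genes of the reactive state were read from lists of related function. In CBX against VISp, of genes named pan-reactive in the field 1 of 7 tested was called (Cxcl10, a chemokine), a share near the 10.3% of all genes called higher. Of those named A1, 4 of 11 were called, all higher, beside the same 10.3%: Fbln5 by 4.50 ± 0.89, Psmb8 (an immunoproteasome subunit) by 3.10 ± 0.99, H2-D1 (a class I histocompatibility chain) by 2.42 ± 0.42 and Iigp1 by 2.29 ± 0.67. Their median difference was 2.29 against 0.087 for all genes tested. Interferon-response genes were called in 4 of 8, with Ifit3 higher by 3.96 ± 0.97, Ifit1 by 3.39 ± 1.24, Isg15 by 3.04 ± 0.92 and B2m by 1.88 ± 0.30, and a median difference of 2.86. These calls rested on 1 mouse for most genes. Mouse E had Cxcl10 at 731.4 CPM and mouse F had 0 CPM, Ifit1 was at 193.6 CPM and 0 CPM, and Isg15 at 100.02 CPM and 0 CPM. Without mouse E, of the interferon genes B2m alone stayed called, Cxcl10 was at -0.28, and of the A1-named genes Fbln5 and H2-D1 stayed called. None of 6 A2-named genes tested was called, beside 22.2% of all genes. Of 10 genes of Stat3 and cytokine signalling, Ednrb, an endothelin receptor, was higher in CBX by 1.40 ± 0.25, and Lifr and Nfkbia were lower, at -1.36 ± 0.50 and -1.26 ± 0.43. Of 11 dissociation and immediate-early genes, the heat shock genes Hspa1b (+2.88 ± 0.79) and Hspa1a (+2.64 ± 0.77) were called, and both calls, with those on Lifr and Nfkbia, were lost without mouse F. With the plate as a block the calls on Isg15 and Nfkbia were lost.

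In MB/HB against VISp, Edn1 (endothelin-1) was higher by 4.67 ± 0.43 (21.9 to 49.5 CPM in MB/HB, at most 7.52 CPM in VISp) and B2m by 2.07 ± 0.22 (321.9 to 403.4 CPM against 53.7 to 142.3 CPM). Beside 7.66% of all genes called higher, 4 of 11 A1-named genes were, H2-D1 by 2.18 ± 0.31 among them, and 2 of 6 A2-named genes (Emp1 and Tm4sf1). Whichever MB/HB mouse was left out, Edn1, B2m, H2-D1, Emp1 and Aspg stayed called, while Fbln5, Psmb8, H2-T23 and Tm4sf1 were each lost without at least 1 mouse. With the plate as a block the calls on Psmb8, Emp1, Tm4sf1 and Aspg were lost, and those on Edn1, B2m and H2-D1 held. None of the 11 dissociation and immediate-early genes was called. Of pan-reactive genes 1 of 7 was called, Aspg at +2.24 ± 0.50, a share near that of all genes. Of filament partners 0 of 5 were called in either comparison. Of the S100 neighbours, S100a11 was higher in CBX than in VISp by 3.73 ± 0.63 and S100a16 by 0.86 ± 0.17, and S100a4 was lower in MB/HB than in VISp, at -2.01 ± 0.61. Of the other-type markers tested, 2 of 6 endothelial, 3 of 5 mural or fibroblast, 3 of 11 oligodendrocyte and 1 of 4 ependymal genes (Dynlrb2) were called higher in MB/HB, and 1 of 6 glutamatergic neuron genes lower. The summed endothelial level was 0.657, 7.23 and 84.1 CPM in mice C, A and B against 0.776 to 99.9 CPM in VISp, and 560.7 CPM in mouse D, where 1 cell had 17205 CPM. The part of these markers in the Edn1 result was not tested.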

How the data were processed

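The deposited table holds CPM with 1 line per cell; the authors' normalization is not stated in the labels, so it was checked on the file. Every line summed to 1000000, and all 9484843 positive values were whole multiples of 1 read within 0.001 reads, which gave each cell's depth (57873 to 1455022 reads, median 434101). Reads were aligned with STAR to mm10, per the submitters' processing notes; the counter and annotation are not given in the sources used here. A panel of 4900 gene columns was used (all listed genes plus the genes with a read in the most cells), and the other 27345 columns served only for sums, depth, genes detected and the choice of the panel.

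The 2000 most variable genes were reduced to 30 principal components and clustered by the Leiden method (15 neighbours, resolution 1; Python 3.11.15 with scikit-learn 1.9.0 and leidenalg 0.10.2). The 11 clusters were named from fixed marker lists, and classing each cell by the highest of its marker lists gave the same class in 2029 of 2040 cells. No doublet caller was run, and cells with RNA of another type were counted instead. Cells with fewer than 500 genes were to be left out, and 0 were.

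CPM was averaged over the astrocyte-like cells of each mouse with 10 or more such cells. Genes with at least 1 CPM in at least 2 mice were tested on log2(mean CPM + 1) with limma 3.58.1 in R 4.3.3 (two-sided, empirical Bayes with trend, Benjamini-Hochberg at 0.05), which understates changes of low genes. The plate and the plate series are the batch labels, and the plate was also fitted as a block with limma's duplicateCorrelation. Of 200 genes changed by 3 log2 units in simulated data, 95.0% were recovered for CBX against VISp and 72.5% for the differences among vectors. Intervals are exact (Clopper-Pearson, 95%), the limit a count of 0 allows is 3 cells, and both cover counting error only. The members, lists and tests were chosen with earlier results of these data known. All 9 members are named, with up to 4 called genes of each further list and the 5 genes most like a member found in at least 20% of VISp cells. One gene that this rule names is not reported here.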

Additional observations from a re-analysis of the deposited data

Results flagged for a closer look

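The rule was run only on MB/HB, the tissue with 4 mice. Its 24 groups are levels and shares of the members over these same 4 mice, so the groups are not independent. A mouse was marked when its gap to the nearest other mouse, divided by the whole range, passed 0.829. There were 4 marks, all on mice with the vector MGT_E160m. Chance marks about 5% of groups of continuous values, a rate that does not apply to shares: where 3 mice are at 0, any cell in the other mouse passes. In mouse A, C4b reached 100 CPM in 2.44% of cells (1 cell) and in 0 cells of the other 3 mice, and Gfap reached it in 2.44% of cells against 12.5% to 13.9% in the others. In mouse B, Nes had a mean of 8.98 CPM against 0 to 0.057 CPM in the others, and reached 100 CPM in 5.56% of cells (2 cells) against 0 in the others.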

How the results depend on the processing

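No paired analysis by replicate number was possible because the labels number each mouse once, but tissues shared plates, and the plate was taken as a block in an alternative chosen after seeing the data. It gave 17.5% of genes called in CBX against VISp, 23.8% in MB/HB against VISp and 22.3% in CBX against MB/HB, turned Serpina3n in MB/HB against VISp to -0.17, and made no call for GFAP_promoter. Vim, S100a10 and S100a6 in CBX against VISp were called under every alternative run. Averaging log2 values over cells moved the genes called to 47.4% in CBX against VISp and 53.3% in CBX against MB/HB (89.9% of calls higher in CBX), where all genes shifted by a median of 1.22, and turned Gfap in CBX against VISp to +0.94; the cause was not tested. Leaving out 1 CBX or MB/HB mouse (no VISp mouse was left out of the tissue comparisons) gave 9.55% to 11.03% for CBX against VISp, 14.01% to 18.98% for MB/HB against VISp, 7.50% to 20.3% for CBX against MB/HB, 25.8% to 31.5% and 7.75% to 21.4% for the shares of cells in CBX and MB/HB against VISp, and leaving out 1 SM mouse 0 to 0.227% between plate series, where a robust variance prior gave 0.0412% (2 genes); a lone CBX mouse was then taken to vary like the other mice. The counts among vectors and for GFAP_promoter stayed at 0 under every alternative. Without 1 mouse, Vim in MB/HB against VISp lay between -1.26 and +0.41, Cxcl10 in CBX against VISp between -0.28 and 9.24, Ifit1 between -0.41 and 7.19 and Isg15 between -0.28 and 6.37. Serpina3n in MB/HB against VISp, at +2.16 and not called, was called on AB plates alone (+2.39) and, in an alternative chosen after seeing the data, without the GFAP_promoter mice (+2.36). Over all results, leaving out 1 mouse weakened 39 and reversed 4, and the other alternatives weakened 56, strengthened 11 and reversed 2. With 2 CBX mice, 4 MB/HB mice and few cells with Serpina3n, C4b or Nes, small differences in these genes were not detectable.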
